A study of Mus musculus with 6 samples.

Results

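The genes described here are 35 genes that mark T cells or carry the signal of the T cell receptor, taken by name as a list and matched by Ensembl identifier to a table of 56884 genes. All 35 were in the table, and 34 had enough counts to be tested. Cd40lg was the exception. By role they were 7 chains of the receptor complex, 3 coreceptor genes, 6 other surface proteins, 11 signalling proteins, 4 transcription factors and 4 genes of the interleukin-2 receptor and of regulatory T cells.

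RNA of 6 mouse spleen samples was sequenced. Of these, 3 held B cells selected from wild-type (WT) spleens, named BL6 in the table, and 3 were spleens of passage 1 (P1) mice of the adoptive transfer model built from the Eµ-SOX11CCND1 mouse model of mantle cell lymphoma. Selection for B cells was given for the WT samples alone, so whatever host and transferred cells the P1 spleens held were sequenced together. Eµ is the enhancer of the immunoglobulin heavy chain gene and is known for driving transgenes in the B lineage. Neither age nor sex was given for any group, and whether the P1 mice received cells of 1 donor was not stated. Nothing links a WT library to its mouse, so they are named WT A, WT B and WT C here, and the P1 libraries keep the replicate numbers 3, 4 and 5 of their labels.

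Library totals ran from 12196413 to 14266132 counts in WT and from 7510327 to 10363396 in P1. P1 replicate 4 stood apart. Mitochondrial genes took 17.4% of its counts against 0.0854% to 3.40% in the other 5 libraries, its normalisation factor was 0.578 against 1.09 to 1.18, and its summed red cell precursor markers reached 223350 normalised CPM (counts scaled to the size of the library) against 36000 and 6652 in the other P1 spleens. P1 replicate 3 had the lowest level of the transgene product Sox11 among the recipients, 82.2 CPM against 941 and 648 in replicates 4 and 5. In bulk RNA, fewer cells of a type and less RNA per cell cannot be told apart.

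A T cell recognises peptide on MHC molecules through the variable alpha and beta chains of its receptor, which have almost no cytoplasmic part of their own. The CD3 chains and the zeta chain pass the signal on through their tyrosines, which Lck phosphorylates while bound to CD4 or CD8, and Zap70 then docks there and phosphorylates the scaffold Lat. In the spleen, T cells fill the sheath around the central arterioles, beside the B cell follicles.

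The CD3 genes lie together on chromosome 9, where Cd3g (44880870 to 44891729, minus strand, GRCm39 as in the table) and Cd3d (44893084 to 44898637, plus strand) are transcribed away from each other from starts 1355 bases apart, and Cd3e (44910038 to 44920925, minus strand) follows. Their levels are the yardstick of what follows, so the 250 bases before each start are shown with those of Cd8a, the member with the highest fold change. The sequences are from RefSeq on GRCm38.p6, a different build from the table, and 19 of the 35 members had such a window, 29 windows in all. Capitals mark matches on either strand to short motifs of factor families known in T cells: CTTTGA for the TCF/LEF family, AGATAA for the family of Gata3, ACAGGAA for the ETS family and TGTGGT for the RUNX family.
Cd3g, chr9:44980432-44980681, minus strand: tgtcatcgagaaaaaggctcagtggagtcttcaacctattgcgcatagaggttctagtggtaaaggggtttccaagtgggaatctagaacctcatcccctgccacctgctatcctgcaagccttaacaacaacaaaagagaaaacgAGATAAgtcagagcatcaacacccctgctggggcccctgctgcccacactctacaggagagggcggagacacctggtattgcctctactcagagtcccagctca
Cd3d, chr9:44981536-44981785, plus strand: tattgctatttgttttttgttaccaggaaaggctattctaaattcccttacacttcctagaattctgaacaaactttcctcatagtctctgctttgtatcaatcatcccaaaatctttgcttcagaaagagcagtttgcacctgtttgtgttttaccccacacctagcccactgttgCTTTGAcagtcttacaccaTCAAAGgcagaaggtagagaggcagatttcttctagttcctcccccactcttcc
Cd3e, chr9:45009612-45009861, minus strand: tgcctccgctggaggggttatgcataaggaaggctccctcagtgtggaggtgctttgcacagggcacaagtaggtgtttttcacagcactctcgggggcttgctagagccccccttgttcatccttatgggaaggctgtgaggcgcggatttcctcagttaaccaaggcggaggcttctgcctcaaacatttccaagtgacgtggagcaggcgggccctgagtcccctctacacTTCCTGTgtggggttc
Cd8a, chr6:71373177-71373426, plus strand: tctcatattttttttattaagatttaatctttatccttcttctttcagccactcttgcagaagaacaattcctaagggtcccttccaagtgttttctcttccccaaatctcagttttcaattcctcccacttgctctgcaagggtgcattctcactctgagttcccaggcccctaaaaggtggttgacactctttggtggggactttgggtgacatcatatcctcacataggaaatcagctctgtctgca

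Each CD3 window held a different motif. Cd3d had 2 TCF/LEF matches, beginning 73 and 54 bases before the start, Cd3g had 1 GATA match at 104 bases and Cd3e 1 ETS match at 16 bases, while these letters were not in the Cd8a window. The motifs did not overlap one another. Such short matches are frequent: of 32851 windows, 13.8% held the TCF/LEF letters, 9.99% the GATA letters, 7.2% the ETS letters and 14.0% the RUNX letters. Of the 29 windows of members, 6, 3, 6 and 4 held them, in this order.

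Most T cell genes had higher levels in P1 spleen than in selected WT B cells. Of 34 tested members, 30 were higher and 2 lower (edgeR quasi-likelihood test with Benjamini-Hochberg adjustment at 0.05, n = 3 per group), and the background in the same test was 16.9% of 15462 genes higher and 11.0% lower. The median log2 fold change of the members was 3.27, and that of all tested genes was 0.02. The highest were Cd8a, Themis and Cd8b1, and the members that fell were Cd2 and Tespa1. Il2ra and Foxp3 did not pass. Normalised CPM of all 3 P1 libraries lay above those of all 3 WT libraries in 31 of the 35 members, against 22.9% of tested genes, and below them in 2, against 24.9%. The comparison sets a selected B cell fraction against whole spleen, so cell selection cannot be told apart from genotype, transfer and tumour.

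In other settings most members were also called higher, and each count is given with its own background. With RLE size factors 30 members were higher and 2 lower (17.1% and 11.0% of all tested genes), and with library totals 28 and 2 (12.5% and 9.44%). With no filter on low counts they were 28 and 2 (10.3% and 6.08%), and with DESeq2 30 and 2 (20.1% and 14.3%). Scaling to pan-B genes gave 32 and 0, but 89.1% of all genes were then higher and 0.757% lower. Leaving out WT A, WT B or WT C left 23, 22 and 27 members higher, where 10.7%, 10.1% and 12.2% of tested genes were higher and 5.15%, 5.01% and 6.02% lower. Leaving out P1 replicate 3, 4 or 5 left 27, 29 and 29 higher, where 17.9%, 17.0% and 19.4% were higher and 14.2%, 9.86% and 12.0% lower. The members that were lower numbered 2 in each of these 6 fits.

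**Figure D1:**
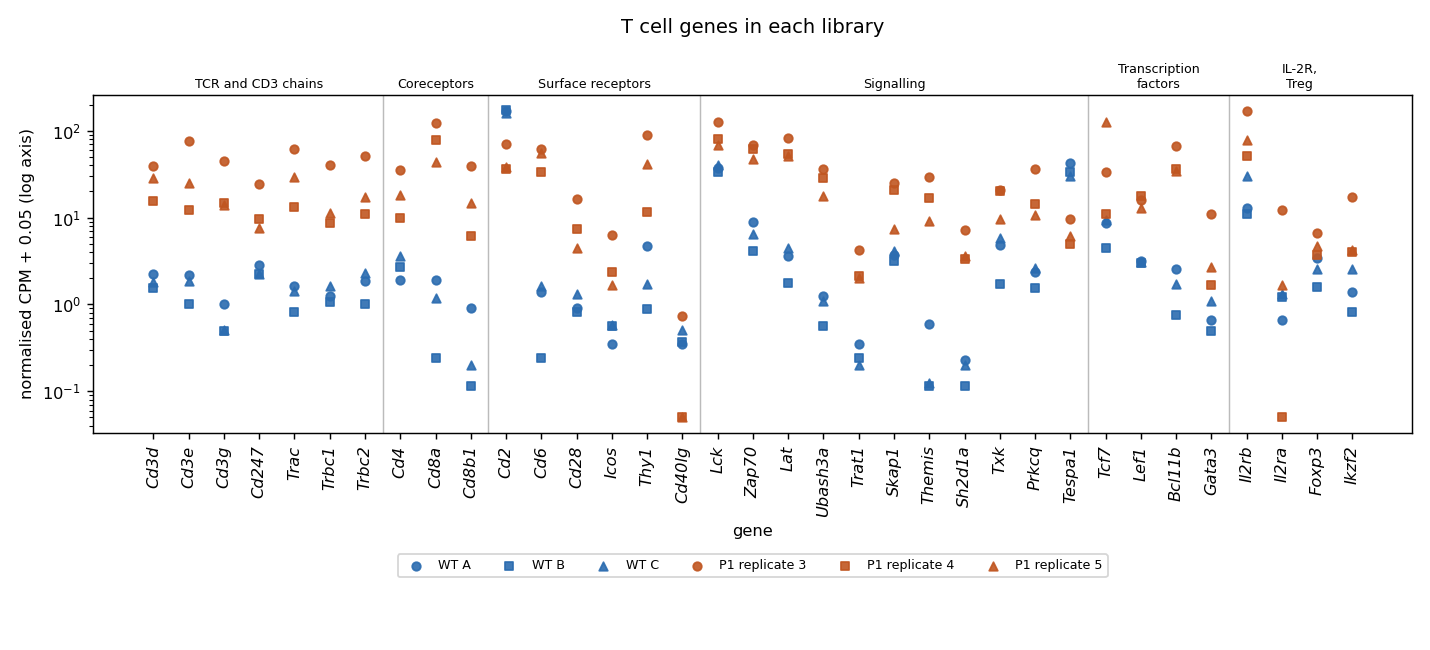
Normalised CPM of the 35 members in each of the 6 libraries, on a log axis after adding 0.05, with WT libraries in blue and P1 libraries in orange. The P1 points lie above the WT points in 31 members, below them in Cd2 and Tespa1, and among them in Cd40lg and Il2ra.

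The T cell genes were not evenly high in the 3 recipients. P1 replicate 3 had the highest normalised CPM in 33 of the 35 members, against 37.3% of all tested genes. Tcf7, highest in replicate 5, and Lef1, highest in replicate 4, were the exceptions. Replicate 4 was lowest in 19 members and replicate 5 in 16. Summed over the 35 members, the level was 1553 CPM in replicate 3 and 700.5 and 847.7 CPM in replicates 4 and 5, and 289 to 333 CPM in WT. The WT sum was mostly Cd2, Lck and Tespa1, as given below.

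All 7 chains of the receptor complex rose. Cd3e, a signalling chain needed for assembly of every receptor, had 35, 15 and 24 counts in the WT libraries, in the order A, B, C, against 889, 52 and 217 in the P1 libraries, in the order 3, 4, 5, an order kept throughout. On the normalised scale these were 2.12, 0.963 and 1.81 CPM in WT and 76.4, 12.0 and 25.2 CPM in P1. The groups were apart, and replicate 3 stood well above the other P1 libraries. Cd3e rose by 4.54 ± 0.73 (log2 fold change ± standard error, edgeR adjusted p = 0.00286). Cd3g and Cd3d, its partners in the complex, rose by 5.26 ± 0.65 and 3.94 ± 0.43 (edgeR adjusted p = 0.00106 and 0.000797).

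Trac, the constant part of the alpha chain, had 26, 12 and 18 counts in WT and 722, 57 and 254 in P1. It rose by 4.82 ± 0.63 (edgeR adjusted p = 0.00136), with every P1 library above every WT library. The beta chain constant genes Trbc1 and Trbc2 rose by 3.97 ± 0.66 and 3.99 ± 0.66 (edgeR adjusted p = 0.0033 and 0.00332). They lie 6849 bases apart on chromosome 6 and are near-identical copies, so how their reads were divided is uncertain. Cd247, the zeta chain, which natural killer (NK) cells also use, had the smallest rise of the complex, 2.53 ± 0.52 (edgeR adjusted p = 0.00795). Of its exon bases, 56.4% are shared with Pou2f1 on the opposite strand, a gene with 1144 to 1663 counts in WT, and the counting strand was not stated. Without P1 replicate 3 all 7 were still called, with log2 fold changes of 3.51 (Cd3e), 4.47 (Cd3g), 1.82 (Cd247), 4.10 (Trac), 2.95 (Trbc1) and 3.06 (Trbc2).

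Per length, the receptor's constant chains were the most abundant members in P1 replicate 3, with 210.2 TPM (a level scaled for gene length) for Trbc2, 187 for Trac and 153 for Trbc1. Cd3d, Cd3e and Cd3g had 60.3, 52.7 and 38.3 TPM there, and Cd247 12.8 TPM. In replicate 4 the same chains had 13.6, 12.2, 10.1, 7.39, 2.55, 3.92 and 1.54 TPM. In WT, Cd3d had 2.14 to 3.71, Cd3e 0.622 to 1.60 and Cd3g 0.343 to 0.916 TPM, so all 3 were above WT in replicate 4 on this scale too. So were Trac, Trbc1 and Trbc2. Cd247 was not, as it had 1.02 to 1.61 TPM in WT. TPM divides by the whole library without the normalisation factor, and globin RNA is part of that whole.

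The genes of both coreceptors, CD4 and CD8, rose. Cd8a (chromosome 6, 71350411 to 71356157) had 31, 3 and 15 counts in WT and 1425, 333 and 379 in P1, or 1.88, 0.193 and 1.13 CPM against 122.5, 77.1 and 44.0 CPM. It rose by 6.23 ± 0.74 (edgeR adjusted p = 0.000919), and by 6.92 without WT A. Cd8b1, the beta chain of the CD8 heterodimer of cytotoxic T cells, ends 35933 bases before Cd8a and had 14, 1 and 2 counts in WT and 456, 26 and 127 in P1. Its rise was 5.75 ± 1.00 (edgeR adjusted p = 0.00393), and 7.40 without WT A, the WT library with most of its counts. Without P1 replicate 3 it was 4.80.

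Cd4, the coreceptor of helper and regulatory T cells, had 31, 41 and 47 counts in WT and 411, 43 and 156 in P1. On the normalised scale the groups were apart, at 1.88, 2.63 and 3.55 CPM against 35.3, 9.95 and 18.1 CPM, and Cd4 rose by 2.98 ± 0.53 (edgeR adjusted p = 0.0042), or 2.39 without P1 replicate 3. Cd40lg, by which activated helper cells signal to B cells, had 5, 5 and 6 counts in WT and 8, 0 and 0 in P1. Its groups overlapped, and with no filter on low counts its log2 fold change was -0.44 (edgeR adjusted p = 0.817). A count of 0 cannot show that the gene is absent at this depth.

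**Figure D2:**
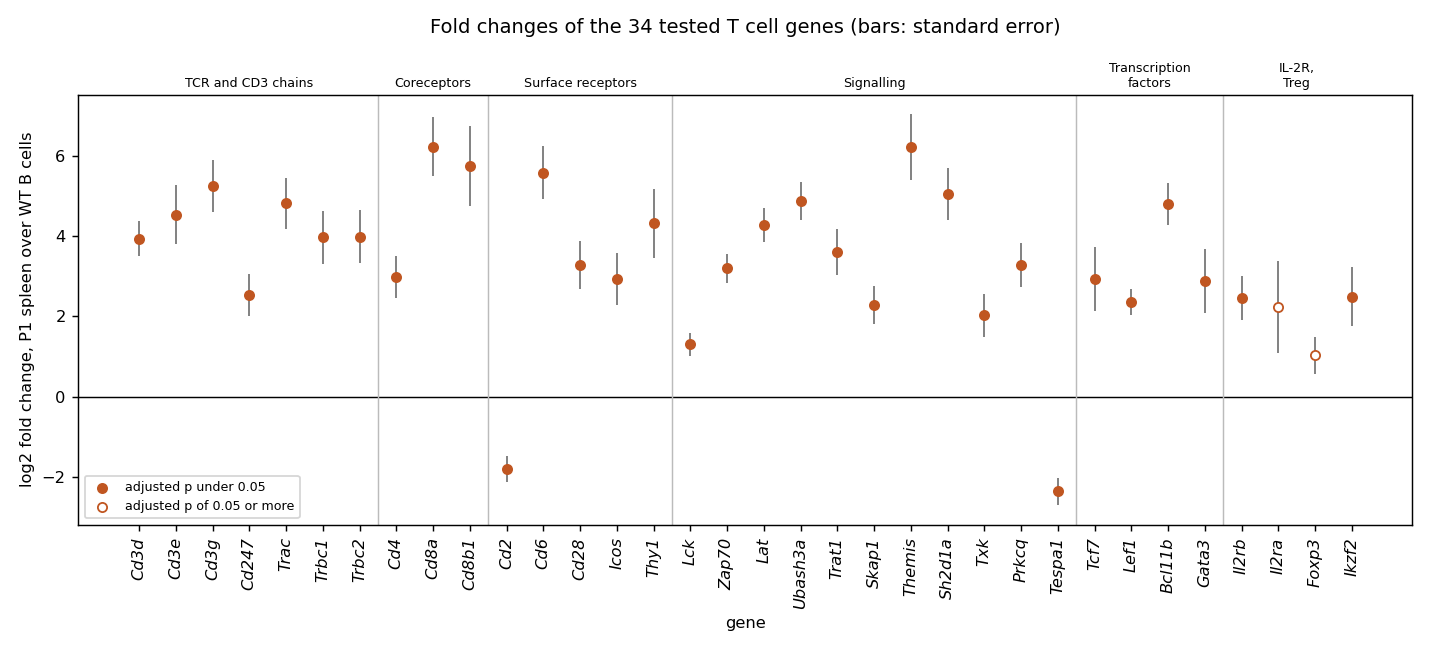
Log2 fold change of P1 spleen over WT B cells for the 34 tested members, with bars for the standard error and open points for adjusted p of 0.05 or more. Of the points, 30 are filled and above 0, 2 are filled and below 0 (Cd2 and Tespa1), and Il2ra and Foxp3 are open.

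Among the surface proteins, 4 of 5 tested members rose and Cd2 fell. Cd6, a scavenger receptor family member that restrains or aids receptor signalling, had 22, 3 and 21 counts in WT and 710, 143 and 474 in P1. It rose by 5.58 ± 0.65 (edgeR adjusted p = 0.000909), and at 61.1, 33.1 and 54.98 CPM its P1 libraries lay within a factor of 2 of each other, unlike those of Cd3e. Thy1, a surface glycoprotein that stromal cells also carry, rose by 4.32 ± 0.86 (edgeR adjusted p = 0.00697), from 4.61, 0.835 and 1.66 CPM to 89.3, 11.6 and 41.3 CPM. Its log2 fold change was 5.22 without WT A and 3.48 without P1 replicate 3, and with every counted gene kept it did not pass (adjusted p = 0.078). The costimulatory receptors Cd28 and Icos rose by 3.27 ± 0.59 and 2.94 ± 0.65 (edgeR adjusted p = 0.00479 and 0.0114). They were 2.58 and 2.08 without P1 replicate 3, and Icos did not pass without WT A or without WT B (adjusted p = 0.0662 and 0.0581).

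Cd2, an adhesion receptor that mouse B cells also carry, had more counts than any other member in WT, at 170, 173 and 160 CPM. In P1 it was at 71.0, 36.1 and 37.7 CPM, with every P1 library below every WT library, and it fell by 1.79 ± 0.32 (edgeR log2 scale, adjusted p = 0.00438). With libraries scaled so that pan-B genes were level, its log2 fold change turned to 0.99 (adjusted p = 0.061), which is below the 2.81 of the median gene under that scaling. The summed pan-B markers were 10659 to 11285 CPM in WT and 1273 to 3570 CPM in P1.

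Of the 11 signalling proteins, 10 rose and Tespa1 fell. Lat, the membrane scaffold that Zap70 phosphorylates, had 59, 27 and 58 counts in WT and 953, 233 and 443 in P1. It rose by 4.27 ± 0.42 (edgeR adjusted p = 0.000614), with 3.58, 1.73 and 4.38 CPM in WT and 82.0, 53.9 and 51.4 CPM in P1. Zap70 rose by 3.20 ± 0.35 (edgeR adjusted p = 0.000799), to 68.3, 62.2 and 47.7 CPM from 8.91, 4.11 and 6.35 CPM. The groups were apart for both, and the P1 libraries differed by less than a factor of 2.

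Themis, a T lineage protein needed for thymocyte selection, had the second highest fold change of all members, 6.21 ± 0.82 (edgeR adjusted p = 0.00143). Its counts were 9, 1 and 1 in WT and 338, 72 and 79 in P1, and its log2 fold change was 7.79 without WT A. Ubash3a, a negative regulator of receptor signalling, and Sh2d1a, the adaptor SAP, rose by 4.88 ± 0.48 and 5.05 ± 0.64 (edgeR adjusted p = 0.000599 and 0.00115). Trat1, an adaptor associated with the receptor, and Prkcq, the kinase that links the receptor to NF-kappaB, rose by 3.60 ± 0.58 and 3.27 ± 0.54 (edgeR adjusted p = 0.00283 and 0.00332). Prkcq was at 2.55 without P1 replicate 3.

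Lck, the kinase that starts the cascade, had the smallest rise of the called members, 1.31 ± 0.29 (edgeR adjusted p = 0.011). It was already at 37.0, 33.5 and 40.4 CPM in WT and reached 125, 80.8 and 68.4 CPM in P1. The groups did not overlap, but Lck did not pass without WT A or without WT B (adjusted p = 0.0626 and 0.072) and with library totals in place of TMM factors (1.07, adjusted p = 0.113). Txk, a Tec family kinase, rose by 2.03 ± 0.53 (edgeR adjusted p = 0.023). That call was lost without WT A, WT B, P1 replicate 3 or P1 replicate 4 and with library totals, with adjusted p from 0.0515 to 0.0724. Skap1, an adaptor for integrin adhesion, rose by 2.29 ± 0.48 (edgeR adjusted p = 0.00901), a call lost without WT B (2.15). Tespa1, a protein of receptor signalling in thymocytes, was at 42.9, 33.1 and 30.2 CPM in the selected WT B cells. It had 20.2, 34.4 and 16.7 counts for each Cd3e count there. In P1 it was at 9.46, 4.86 and 6.15 CPM, and it fell by 2.36 ± 0.34 (edgeR log2 scale, adjusted p = 0.00197). Scaled to pan-B genes it was at 0.38 (adjusted p = 0.433).

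All 4 transcription factors rose, but 2 of the calls did not hold when 1 library was left out. Bcl11b, which fixes T lineage commitment, had 41, 11 and 22 counts in WT and 771, 157 and 293 in P1, and rose by 4.81 ± 0.53 (edgeR adjusted p = 0.000794). Lef1 rose by 2.36 ± 0.33 (edgeR adjusted p = 0.00175), with even levels, 3.09, 2.95 and 3.02 CPM in WT and 16.1, 17.8 and 12.8 CPM in P1.

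Tcf7, which encodes TCF-1, a partner of LEF-1 in naive and memory T cells, had its own order across the recipients. It had 143, 69 and 123 counts in WT and 387, 47 and 1089 in P1, or 33.3, 10.9 and 126.3 CPM in replicates 3, 4 and 5. P1 replicate 5 was thus the highest, whereas Cd3e was highest in replicate 3. Tcf7 rose by 2.93 ± 0.80 (edgeR adjusted p = 0.0265), and by 1.57 without P1 replicate 5 (adjusted p = 0.0637). The call was also lost without WT A, B or C (adjusted p = 0.0818, 0.108 and 0.0667) and with no filter on low counts (0.173). Gata3, the helper cell regulator, rose by 2.89 ± 0.79 (edgeR adjusted p = 0.0268), from 0.606, 0.449 and 1.06 CPM to 11.0, 1.62 and 2.67 CPM. Its call was lost without WT A, B or C (adjusted p = 0.106, 0.118 and 0.0595) and without P1 replicate 3, where it was 1.64 (0.0673). Without any 1 WT library, 2 of the 4 factors were called.

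Genes of the interleukin-2 receptor and of regulatory T cells were the least settled group, with 2 of 4 called. Il2rb, the beta chain shared by effector T cells and NK cells, had 213, 172 and 396 counts in WT and 1943, 219 and 672 in P1. It rose by 2.46 ± 0.55 (edgeR adjusted p = 0.0113), or 1.84 without P1 replicate 3, and it did not pass without WT A or without WT B (adjusted p = 0.058 and 0.0587). Ikzf2, which encodes Helios, rose by 2.49 ± 0.73 (edgeR adjusted p = 0.0356), and was 1.41 without P1 replicate 3 (adjusted p = 0.101). Without WT A, B or C its adjusted p was 0.125, 0.137 and 0.0536. None of the 4 was called without WT A or WT B, and 1 without WT C or P1 replicate 3.

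Foxp3, the master regulator of regulatory T cells, did not pass, at 1.03 ± 0.47 (edgeR adjusted p = 0.137). It had 3.33, 1.54 and 2.49 CPM in WT and 6.62, 3.70 and 4.64 CPM in P1, so that on this scale the groups were close to each other without overlapping. In TPM, which omits the normalisation factor, they overlapped, at 2.25, 0.887 and 1.35 in WT and 4.07, 0.70 and 2.42 in P1. Replicate 4 was then below every WT library. Scaled to pan-B genes it was at 3.76 (adjusted p = 0.000693), of which 2.81 is the shift of the median gene. Il2ra, the alpha chain CD25, had 10, 18 and 17 counts in WT and 142, 0 and 14 in P1. It was at 2.24 ± 1.15 (edgeR adjusted p = 0.186) and turned to -0.10 without P1 replicate 3. That library held 142 of its P1 counts. Scaled to pan-B genes it was at 4.84 (adjusted p = 0.00737). Foxp3 exons overlap Flicr on the same strand (18.6% of its bases) and Ccdc22, Gm36995 and Ppp1r3f on the opposite strand (12.9%, 8.15% and 5.81%), so its low counts may be shared with neighbours.

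The coreceptor and regulatory genes were also read against Cd3e of the same library, as counts of the gene for each count of Cd3e. Relative to Cd3e, CD8 genes were higher and Cd4, Foxp3, Il2ra and Ikzf2 lower in all 3 P1 libraries than in all 3 WT libraries. Each of these 6 differences had an exact two-sided permutation p of 0.1, the smallest that 3 libraries per group allow, and 0.1 after adjustment over the 6. None can therefore pass 0.05 in this design. The share of all 15462 tested genes whose ratio to Cd3e was higher in every P1 library was 1.06%, and 86.6% were lower, since Cd3e itself rose. Ratios carry the counting error of Cd3e, which had as few as 15 counts in WT B, and their 95% intervals below are exact binomial intervals that cover counting error alone.

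Cd8b1 had 0.4, 0.0667 and 0.0833 counts for each Cd3e count in WT and 0.513, 0.5 and 0.585 in P1. The P1 libraries were nearly equal although their Cd3e counts ran from 52 to 889. With 0.5 added to both counts, the mean log2 ratio went from -2.65 ± 1.18 (SD) to -0.91 ± 0.12. This difference of 1.75 became 2.42 without WT A. The intervals of WT A (0.199 to 0.762) and P1 replicate 3 (0.457 to 0.575) overlap, so WT A alone could not be told from P1.

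Cd8a had 0.886, 0.2 and 0.625 counts for each Cd3e count in WT and 1.60, 6.40 and 1.75 in P1. P1 replicate 4 stood apart, with an interval of 4.77 to 8.75 against 1.47 to 1.75 in replicate 3 and 1.47 to 2.07 in replicate 5. It also had 12.8 Cd8a counts for each Cd8b1 count (interval 8.59 to 19.9), where replicates 3 and 5 had 3.12 and 2.98 (2.81 to 3.48 and 2.43 to 3.68). Some dendritic cells carry Cd8a without Cd8b1. The 10 dendritic cell markers were mixed in replicate 4, where 2 of them, Xcr1 and Cd209a, were at 0 counts and Clec9a at 7, while Batf3, a factor of the dendritic cells that carry Cd8a, was at 28.0 CPM against 13.1 and 4.06 CPM in replicates 3 and 5 and 1.09 to 2.95 CPM in WT. The summed list was 65.3 CPM there against 155 and 45.4 CPM in replicates 3 and 5. The part of dendritic cells in the Cd8a level was not tested. Without replicate 4 the difference of log2 ratios was 1.73 in place of 2.38.

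Cd4 had 0.886, 2.73 and 1.96 counts for each Cd3e count in WT and 0.462, 0.827 and 0.719 in P1, and the WT A and P1 replicate 4 values were close. Its log2 ratio differed by -1.35 between the groups, where 86.6% of all tested genes had a lower ratio in every P1 library. The Cd4 to Cd8b1 ratio was 2.21, 41.0 and 23.5 in WT and 0.901, 1.65 and 1.23 in P1, a log2 difference of -3.10 (exact two-sided permutation p = 0.1, n = 3 per group), which was -4.23 without WT A and -2.40 without WT B. With 1 and 2 Cd8b1 counts in WT B and C their intervals were wide, 6.96 to 1658 and 6.15 to 200, and that of WT A, 1.14 to 4.51, overlapped that of P1 replicate 4, 0.993 to 2.80. Per kilobase of gene, Cd4 stood at 0.331, 0.608 and 0.452 of Cd8b1 in P1 replicates 3, 4 and 5, so Cd8b1 was the more abundant in length-corrected terms in replicates 3 and 5 (intervals 0.289 to 0.38 and 0.355 to 0.576). In replicate 4 the interval, 0.365 to 1.03, reached equality.

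A ratio lower in every P1 library was shared by 86.6% of all tested genes. For Foxp3 the intervals of the groups also did not overlap. It had 1.57, 1.60 and 1.38 counts for each Cd3e count in WT and 0.0866, 0.308 and 0.184 in P1, a log2 difference of -3.12. The lowest WT bound was 0.788 and the highest P1 bound 0.547. Foxp3 counts in WT, 55, 24 and 33, were above those of Cd3e, and the part of overlapping genes in them was not tested. Ikzf2 went from 0.629, 0.8 and 1.38 to 0.227, 0.327 and 0.166, a log2 difference of -1.93. Il2ra went from 0.286, 1.20 and 0.708 to 0.16, 0 and 0.0645, a log2 difference of -3.76, which was -2.61 without P1 replicate 4, the library with 0 counts, and -4.65 without P1 replicate 3. On the normalised scale all 3 were above every WT library in P1 replicate 3, yet there they were lower for each count of Cd3e.

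**Figure D3:**
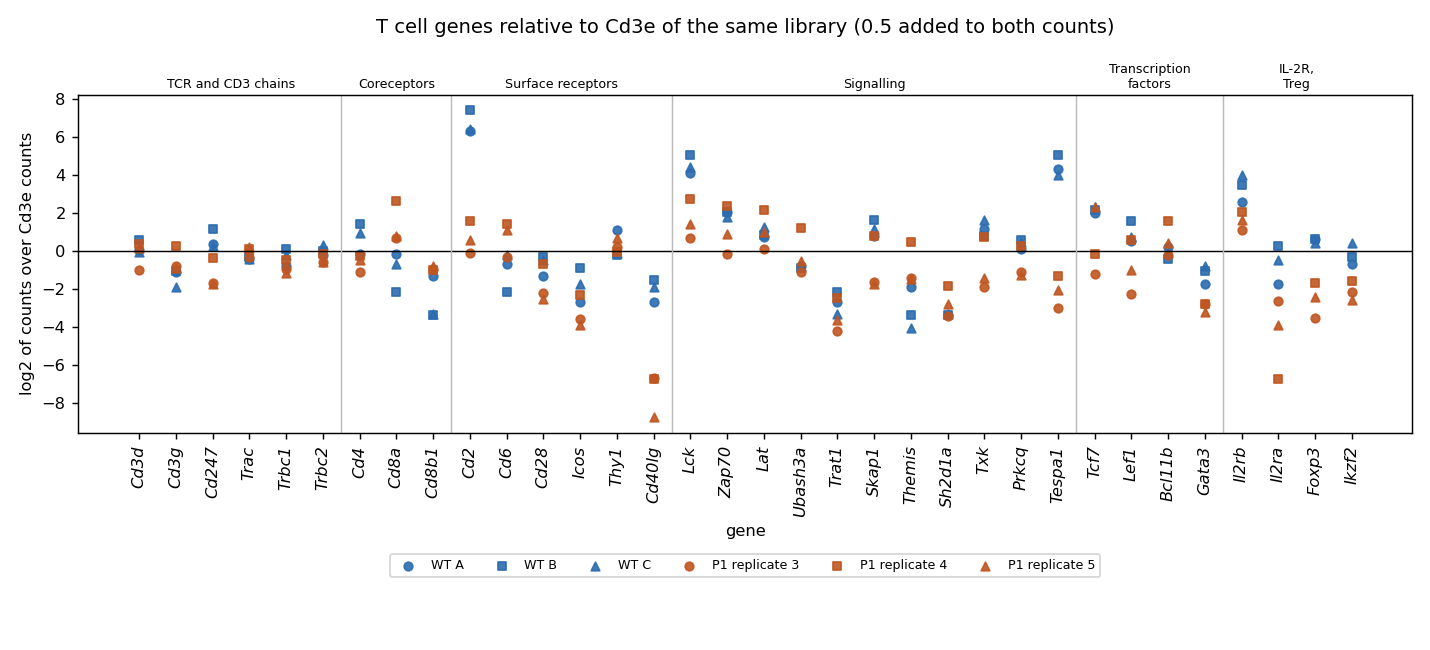
Log2 of each member's counts over the Cd3e counts of the same library, with 0.5 added to both, for the 34 members other than Cd3e. P1 points (orange) lie above the WT points (blue) in 5 members (1.06% of all tested genes) and below them in 13 (86.6% of all tested genes), and overlap them in 16.

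Over all 34 members other than Cd3e, the ratio was higher in every P1 library for 5 and lower for 13, against 1.06% and 86.6% of all tested genes. The 5 were Cd3g, Trac, Cd8a, Cd8b1 and Themis. Trac had 0.743, 0.8 and 0.75 counts for each Cd3e count in WT and 0.812, 1.10 and 1.17 in P1. Trbc2, whose groups overlapped, had 0.857 to 1.25 in WT and 0.676 to 0.904 in P1. The 13 that were lower included Cd2, Tespa1, Lck, Il2rb, Skap1, Txk, Gata3, Cd247 and Cd40lg beside the 4 genes above. Lck had 17.5, 34.8 and 22.3 counts for each Cd3e count in WT and 1.63, 6.71 and 2.72 in P1. Tcf7 had 4.09, 4.60 and 5.12 in WT and 0.435, 0.904 and 5.02 in P1, so replicate 5 alone was at the WT value. P1 replicate 4, in which Cd3e was lowest, had the highest ratio of the P1 libraries in 27 of the 34 members and in 83.9% of all tested genes, so that order is not a result about the members.

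Receptor V genes were counted in small numbers but were many. Trbv genes, the variable segments of the beta chain, had 302, 34 and 128 counts in P1 replicates 3, 4 and 5, spread over 22, 14 and 17 of the 35 Trbv genes in the table. Trbv16 was the most counted in each, with 14.6% (95% Wilson interval 11.0 to 19.0), 26.5% (14.6 to 43.1) and 14.1% (9.08 to 21.1) of Trbv counts. In WT there were 23, 4 and 7 Trbv counts over 9, 3 and 5 genes, too few for a test. Trav genes had 100, 11 and 31 counts in P1, over 40, 9 and 13 of 128 genes, and the most counted, Trav13-1 in replicate 3 and Trav9-4 in replicate 5, took 12.0% (6.999 to 19.8) and 16.1% (7.09 to 32.6). No single V gene held most of the counts in any P1 library. The intervals treat reads as independent, and related V genes can exchange reads.

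Other genes of the T cell receptor pathway, most of which B cells use too, were called in both directions but leaned lower. Of 37 tested, 9 were higher and 9 lower, and their median was -0.27 on the log2 scale. Of all tested genes, 16.9% were higher and 11.0% lower. Fold changes were positive in 10 of the 37, and in 7859 of all 15462 tested genes. Every P1 library lay above every WT library in 9 and below in 15, against 22.9% and 24.9% of all tested genes. Cd5, an inhibitory receptor of T and B-1 cells, rose by 3.59 ± 0.34 (edgeR adjusted p = 0.000579), from 3.03, 2.31 and 3.33 CPM to 38.5, 24.8 and 41.4 CPM. Dgka, which quenches diacylglycerol signals, fell by 1.68 ± 0.24, and Ptprc, the phosphatase CD45, by 1.46 ± 0.47 (edgeR log2 scale, adjusted p = 0.00204 and 0.048). The Ptprc call was lost without any one library other than P1 replicate 3 (adjusted p from 0.0827 to 0.143) and with library totals (0.06). The lower count was 2 without WT A or B and 3 without WT C, where 5.15%, 5.01% and 6.02% of tested genes were lower. Library totals gave 5 higher and 5 lower, against 12.5% and 9.44% of tested genes.

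Of 20 further helper and regulatory T cell genes, 14 were tested. Of these, 7 were higher and 2 lower, against 16.9% and 11.0% of all tested genes. Tigit, an inhibitory receptor, rose by 4.81 ± 0.59 (edgeR adjusted p = 0.00104), from 0.545, 0.321 and 1.13 CPM to 17.6, 11.1 and 27.0 CPM. Il10, an immunosuppressive cytokine, rose by 3.57 ± 0.55 (edgeR adjusted p = 0.00248). Cd200 and Runx3, which B cells also express, fell by 2.89 ± 0.47 and 0.99 ± 0.29 (edgeR log2 scale, adjusted p = 0.00304 and 0.0345), the second call being lost without any 1 WT library (adjusted p = 0.104, 0.101 and 0.0944). The higher count was 4 without WT A, 3 without WT B and 4 without WT C, and the lower count 1 in each case. In these fits 10.7%, 10.1% and 12.2% of tested genes were higher and 5.15%, 5.01% and 6.02% lower. Among 8 gamma-delta T cell genes 1 was tested, Sox13, which rose by 5.18 ± 0.84 (edgeR adjusted p = 0.00296), where 16.9% of all tested genes were higher. The gamma and delta constant genes were sparse, and their groups overlapped in normalised CPM. In P1 replicates 3, 4 and 5, Tcrg-C2 had 100, 0 and 13 counts and Trdc 22, 2 and 0. In WT they had 1, 1 and 3 and 7, 5 and 3 counts. Tcrg-C1 had 4, 6 and 2 counts in WT and 21, 3 and 0 in P1, and Tcrg-C4 6, 6 and 4 and 32, 0 and 3. Tcrg-C3 had 0 counts in every library. Ptcra, the pre-receptor alpha chain of thymocytes, had 0 counts in all 6 libraries.

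NK cells share several members, among them Cd247, Il2rb, Zap70, Lck and Txk. Of 14 NK cell markers, 10 were tested, and 4 were higher and 0 lower, against 16.9% and 11.0% of all tested genes. Without WT B 2 were higher (10.1% of tested genes), and without P1 replicate 3 there were 3 lower (14.2%). The summed list was 22.2 to 42.7 CPM in WT and 282, 68.5 and 125 CPM in P1 replicates 3, 4 and 5, the same order as Cd3e. The largest parts of the P1 sums were Nkg7 (92.4, 12.7 and 43.3 CPM), Eomes (44.6, 21.3 and 31.7), Prf1 (39.7, 11.6 and 29.0) and Cd244a (64.5, 17.1 and 11.4). The sum is therefore not a measure of NK cells alone. Eomes, Nkg7 and Prf1, which cytotoxic T cells also express, rose by 3.70 ± 0.41, 4.58 ± 0.78 and 2.25 ± 0.49 (edgeR adjusted p = 0.000813, 0.00374 and 0.0105), the last lost without WT B (0.0575). The NK receptors Klrb1c and Ncr1 had 22, 24 and 40 and 21, 24 and 39 counts in WT. In P1 they had 59, 0 and 0 and 51, 0 and 2 counts. Of the 14 markers, 8 were at 0 counts in replicate 4, 4 in replicate 5 and 0 in replicate 3 and in WT. In contrast, 5 of the 14 were above every WT library in all 3 P1 libraries, against 22.9% of all tested genes. They were Eomes, Nkg7 and Prf1, and Klrd1 and Cd244a, named here after their values were seen. Klrd1 was not called (edgeR adjusted p = 0.0752). The part of NK cells in the shared members was not tested.

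**Figure D4:**
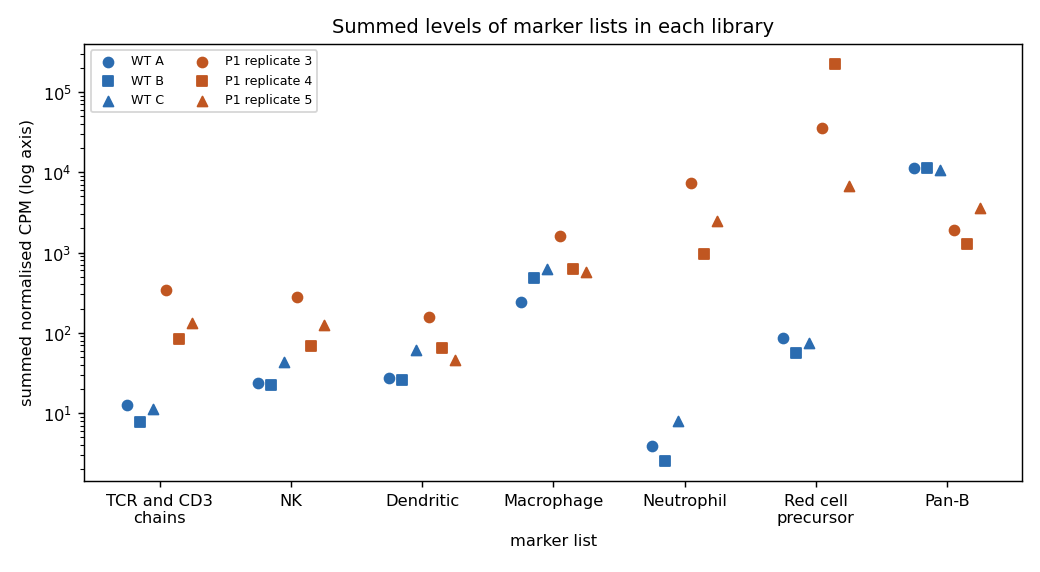
Summed normalised CPM of marker lists in each library, on a log axis, with WT in blue and P1 in orange. The NK list includes Eomes, Nkg7 and Prf1, which cytotoxic T cells also express. The 7 receptor chains summed to 7.83 to 12.7 CPM in WT and 338, 84.5 and 133 CPM in P1 replicates 3, 4 and 5, while red cell precursor and neutrophil markers were higher still and pan-B markers lower.

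Marker lists of other cells did not all move with the T cell genes. All 10 neutrophil and all 10 red cell precursor markers were higher in P1, and their summed levels were 967 to 7295 CPM and 6652 to 223350 CPM, against 2.50 to 8.01 and 55.9 to 85.0 CPM in WT. Of 12 macrophage markers 3 were higher (1 without WT B), with sums of 243 to 629 CPM in WT and 572 to 1607 CPM in P1. Of 8 tested dendritic cell markers, 1, Batf3, was higher, and their sums overlapped (25.5 to 60.6 and 45.4 to 155 CPM). That count was 0 without WT A or B, 3 without WT C and 2 without P1 replicate 4. Neutrophil, macrophage, NK and dendritic sums were all highest in P1 replicate 3, the library with the highest T cell sum. The NK sum there was led by Nkg7, which cytotoxic T cells also express. Red cell markers were highest in replicate 4. Of 16 pan-B markers, 15 were lower and 0 higher, while of all tested genes 16.9% were higher and 11.0% lower. The part of this cell content in the T cell gene differences was not tested.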

How the data were processed

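RNA of 3 samples of WT B cells and 3 P1 spleens was sequenced from 50 ng of total RNA with a directional library kit, per the labels. Raw counts per gene were deposited by the authors as 1 table. The tools named, per the submitters' processing notes, are Trim Galore (trimming), HISAT2 (alignment) and featureCounts (counting), with build GRCm39. Versions, options and counting strand are not given in the sources used here. The P1 labels give each library its own mouse number, but nothing says that these mice came from separate transfers. Nothing says that the WT samples are independent animals. The column names of WT A and WT B share a tag that WT C lacks, and its meaning is not given. The p-values therefore describe only how far these samples spread, which may be technical within WT.

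Of 56884 genes, 91.3% were given a symbol by gene ID. Genes were filtered with filterByExpr, scaled by TMM and tested on the counts with edgeR (4.0.16, R 4.3.3), with the robust quasi-likelihood F-test and Benjamini-Hochberg adjustment over all 15462 tested genes at 0.05. The standard error is the log2 fold change divided by the square root of F. DESeq2 (1.42.0) was an alternative. Normalised CPM use TMM-scaled totals, and TPM use the deposited gene length. Ratios to Cd3e had 0.5 added to both counts and were compared by exact permutation (scipy 1.17.1). The test was checked on simulated data. Within WT, library pairs differed by a chi-square per degree of freedom of 19.5 to 20.9, and within P1 by 123.7 to 280.2. No library was therefore a repeat sequencing of another. These values cannot tell separate preparations of the same animal from separate animals.

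The members and lists were chosen with earlier results of these data known. All members could be named, and from each other list its 3 best tested genes by adjusted p, its most counted gene by mean CPM, and all genes where it held 10 or fewer. Klrb1c and Ncr1 were fixed as NK markers, and genes overlapping members, Klrd1 and Cd244a were named after their values were seen. Lists covered the receptor pathway, helper and regulatory, gamma-delta and immature T cells, NK, dendritic, pan-B, macrophage, red cell and neutrophil markers. One gene that this rule names is not reported here.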

Additional observations from a re-analysis of the deposited data

How the results depend on the processing

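Most members were called higher in every setting, but fewer when a library was left out. The counts were 28 to 32 higher and 0 to 2 lower over other size factors, library totals, pan-B scaling, DESeq2 and no filter. They were 22 to 29 higher and 2 lower when a library was left out. The lowest, 22, was without WT B, where 10.1% of all tested genes were higher. The 32 higher and 0 lower came from pan-B scaling, under which 89.1% of all tested genes were higher. The median gene then stood at 2.81 in place of 0.02 (log2 fold change). Library totals moved it to -0.24. Under pan-B scaling Cd2 (0.99), Tespa1 (0.38), Dgka (1.16), Ptprc (1.29), Cd200 (0.21) and Runx3 (1.98) turned positive, all below that shift. Il2ra turned to -0.10 without P1 replicate 3. Under pan-B scaling the receptor pathway list gave 35 higher and 0 lower genes, the helper and regulatory list 13 and 0, immature T cell genes 1 and 0, NK 7 higher, dendritic 8 higher, macrophage 12 higher, and pan-B 2 higher and 2 lower. Library totals gave 5 higher and 5 lower pathway genes, and DESeq2 and no filter each 2 higher dendritic markers. Leaving out a library gave 6 to 10 higher and 2 to 10 lower pathway genes, and 3 to 8 higher and 1 to 2 lower helper and regulatory genes. It gave 1 to 2 higher gamma-delta genes, 0 to 1 higher and 0 to 1 lower immature T cell genes, 2 to 5 higher and 0 to 3 lower NK markers, 0 to 3 higher dendritic and 1 to 4 higher macrophage markers. The shares of all tested genes called in each of these fits are those given above beside the member counts. Where these counts moved the cause was not tested. The 6 ratios to Cd3e and the Cd4 to Cd8b1 ratio kept their direction with a pseudocount of 1, with the sum of Cd3d, Cd3e and Cd3g as denominator or Cd8a in place of Cd8b1, and without each library. No test of V gene use was run, since WT libraries had too few counts. No paired analysis was possible because the WT columns carry no mouse number. With 15 to 35 Cd3e counts in WT, ratios there are imprecise.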
